A study of Mus musculus with 4 samples.

Results

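The dermal mesenchyme around the E13.5 mouse mammary bud was followed in 82 cells of 1 single-cell RNA library, which made up 63.6% (exact 95% interval 54.6 to 71.9) of its 129 mesenchymal cells and 34.9% (28.8 to 41.4) of the 235 cells that passed the filters, out of 981 deposited barcodes. The cells were chosen by their own unique molecular identifiers (UMIs, each marking 1 captured RNA molecule). A cell had to hold 5000 or more UMIs with at most 6% of them mitochondrial, 10 or more UMIs of the collagens Col1a1, Col1a2 and Col3a1, and more than 2 times as many of these as of Epcam, Krt8, Krt18, Krt5, Krt14 and Krt15. Among these mesenchymal cells, a dermal cell held more UMIs of Ebf2, Ebf3, Itm2a and Akap12 than of Enpp2, Nrgn, Apcdd1 and Rspo1. The other 47 mesenchymal cells are called sub-epithelial here, and 98 cells with 10 or more UMIs of the 6 epithelial genes, and more than 2 times as many of these as of the 3 collagens, are called epithelial.

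The series holds 1 library each of newborn (P0) glands and of glands at 3 embryonic stages, E13.5, E14.5 and E15.5, all from wild-type female C57B6 mice (C57 B6/N in the study's methods). Mammary rudiments of several embryos were pooled for a library, dissociated with collagenase and hyaluronidase, and sorted with cells positive for CD45, CD31 or Ter119 left out. Epithelial and stromal cells were both loaded, so the share of any class depends on the dissection and the sort. With 1 library per stage there was no replicate and no test, cells were not treated as replicates, and stage and library cannot be told apart. Intervals are exact 95% intervals of the counts and cover counting error only.

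Dermal mesenchyme is the embryonic connective tissue under the epidermis. Around a mammary bud it surrounds a thin condensed mesenchyme that lies against the epithelium, answers epithelial PTHrP and Wnt signals and expresses hormone receptors. Dermal cells build the collagen matrix of the skin, later form papillary, reticular and fat-forming layers, and are a source of growth factors for the bud, FGF10 among them. EBF factors are transcription factors with a known role in fat cell and stromal lineages.

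The 82 cells held 1526064 UMIs, from 5240 to 43629 per cell with a median of 16744, and a median of 4296 genes. The median depth was 15917 UMIs in sub-epithelial and 18967.5 in epithelial cells, and the median mitochondrial share was 3.44%, 3.30% and 3.66% in the same order. Levels are given as the UMIs of a gene summed over a class, per 1000000 UMIs of that class (CPM), and are compared for the same gene between classes. Where a share of cells with a UMI was set against another class at E13.5, the share with 5000 UMIs drawn at random from each cell, called thinned, is given beside it. Counts of cells given for a single class are at full depth.

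Because the rule used the UMIs of 8 genes, the values of these genes describe the choice and support nothing. The excess of the 4 dermal over the 4 sub-epithelial genes was 1 at the lowest, 17.0 at the median and 96 at the highest in dermal cells, and -74, -12.0 and -1 in sub-epithelial cells. The 4 sub-epithelial genes had 0 UMIs in 32 dermal cells. Just inside the limit, 5 cells with an excess of 1 or 2 summed to 19 dermal against 13 sub-epithelial UMIs, and just outside it 3 cells summed to 12 against 17. An excess of 5 or less was found in 13 dermal cells.

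**Figure D1:**
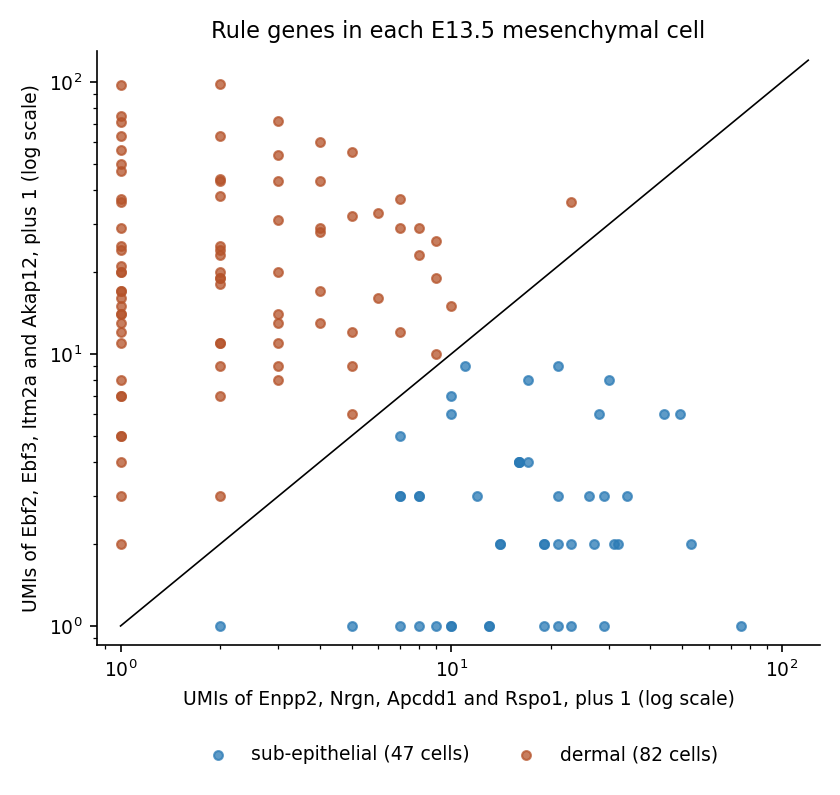
UMIs of the 4 dermal genes (vertical axis) against UMIs of the 4 sub-epithelial genes (horizontal axis), each plus 1 on a log scale, in each of the 129 E13.5 mesenchymal cells; the line marks equal counts. The 82 dermal cells lie above the line by construction, 32 of them at 0 UMIs of the sub-epithelial genes, and 5 dermal cells have an excess of only 1 or 2 UMIs.

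Among the rule genes, Itm2a, which encodes a membrane protein of differentiating mesenchyme (chrX:107397099-107403376, GRCm38), was present in 77 of 82 dermal cells. Its level per dermal cell was 0 at the lowest, 605 at the median and 5191 CPM at the highest, and the summed level of 923 CPM (876 to 973) was 10.9-fold that of sub-epithelial and 19.8-fold (16.1 to 24.7) that of epithelial cells. Akap12, a scaffold protein that tethers protein kinase A (chr10:4266380-4359470), was in 61 dermal cells at 273 CPM against 33.2 and 23.5. Ebf3 (chr7:137193673-137314445) was in 48 dermal cells at 109 CPM (93.5 to 127), against 3.69 CPM in sub-epithelial cells and 0 UMIs in epithelial cells. Ebf2 (chr14:67233292-67430918) was in 29 dermal cells at 68.8 CPM and had 1 UMI in each of the other 2 classes. As genes of the rule, Itm2a was detected in nearly every dermal cell and Ebf2 in fewer than 4 in 10, which describes the choice only.

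The stretches before the starts of Ebf3 and Itm2a are shown for 2 genes of the rule, which separate the class by construction, because Ebf1, Ebf2 and Ebf3 encode factors that bind an inverted repeat whose core can be written CCCNNGGG. This core is its own reverse complement and so reads the same on both strands. The 250 bases before the RefSeq start of each gene are given 5′ to 3′ on the minus strand of GRCm38.p6, at chr7:137314446-137314695 for Ebf3 and chrX:107403361-107403610 for Itm2a, with the core in capitals. Gene positions elsewhere come from the GENCODE annotation, which places the start of Itm2a a few bases upstream of the RefSeq start.
Ebf3: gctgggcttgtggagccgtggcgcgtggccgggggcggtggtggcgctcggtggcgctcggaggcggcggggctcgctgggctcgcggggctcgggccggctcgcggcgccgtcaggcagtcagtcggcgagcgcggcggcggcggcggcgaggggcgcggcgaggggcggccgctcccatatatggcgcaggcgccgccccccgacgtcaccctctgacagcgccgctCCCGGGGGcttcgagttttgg
Itm2a: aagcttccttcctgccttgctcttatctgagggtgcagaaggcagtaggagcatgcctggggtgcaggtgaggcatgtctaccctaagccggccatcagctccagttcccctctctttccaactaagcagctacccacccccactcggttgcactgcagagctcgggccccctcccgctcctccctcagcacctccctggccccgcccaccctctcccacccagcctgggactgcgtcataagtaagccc
Ebf3 held 1 core, 21 bases before its start, and Itm2a held 0. Of 32851 such windows of 250 bases, 3882 (11.8%) held the core, so a match in 1 of 2 genes is a description of letters and not a site. Ebf2 and Akap12 were not shown.

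The 5 dermal marker genes outside the rule were higher in dermal cells in the summed counts. Of the 5 sub-epithelial marker genes outside the rule, Crabp1, Lef1, Esr1 and Bmp4 were at least 2-fold lower in dermal than in sub-epithelial cells, whereas Vcan, a matrix proteoglycan and a marker of the sub-epithelial list, did not separate the classes by 2-fold, at 322 against 459 CPM. Cthrc1, a secreted protein of collagen-rich matrix (chr15:39076932-39087121), was at 135 CPM (117 to 155) in dermal cells, 38.2 in sub-epithelial and 43.1 in epithelial cells. Plagl1, an imprinted zinc finger factor, ranged from 0 over a median of 430 to 2245 CPM per dermal cell and summed to 485 CPM against 93.6 and 55.3. Cdkn1c, an imprinted inhibitor of cyclin-dependent kinases, had a UMI in all 82 dermal cells, with 119, 1908 and 5546 CPM at the lowest, median and highest. Its summed level of 2140 CPM was 2.55-fold (2.35 to 2.77) that of sub-epithelial cells and 8.09-fold (7.38 to 8.88) that of epithelial cells. With Itm2a left out of the rule, the log2 ratio of Cdkn1c to sub-epithelial cells, with 5 CPM added, went from 1.34 to 0.99. Fgf10, the growth factor known to act on the mammary epithelium, was at 20.3 CPM in dermal cells (31 UMIs in 20 cells), at 6.16 CPM in sub-epithelial cells (5 UMIs) and at 0 UMIs in epithelial cells. The ratio of dermal to sub-epithelial Fgf10 was 3.30 with the wide interval of 1.27 to 10.9, and with Itm2a left out of the rule the log2 ratio, with 5 CPM added, went from 1.18 to 0.18. Fzd4, a Wnt receptor, had 28 UMIs in dermal cells against 1 and 2 in the other classes.

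**Figure D2:**
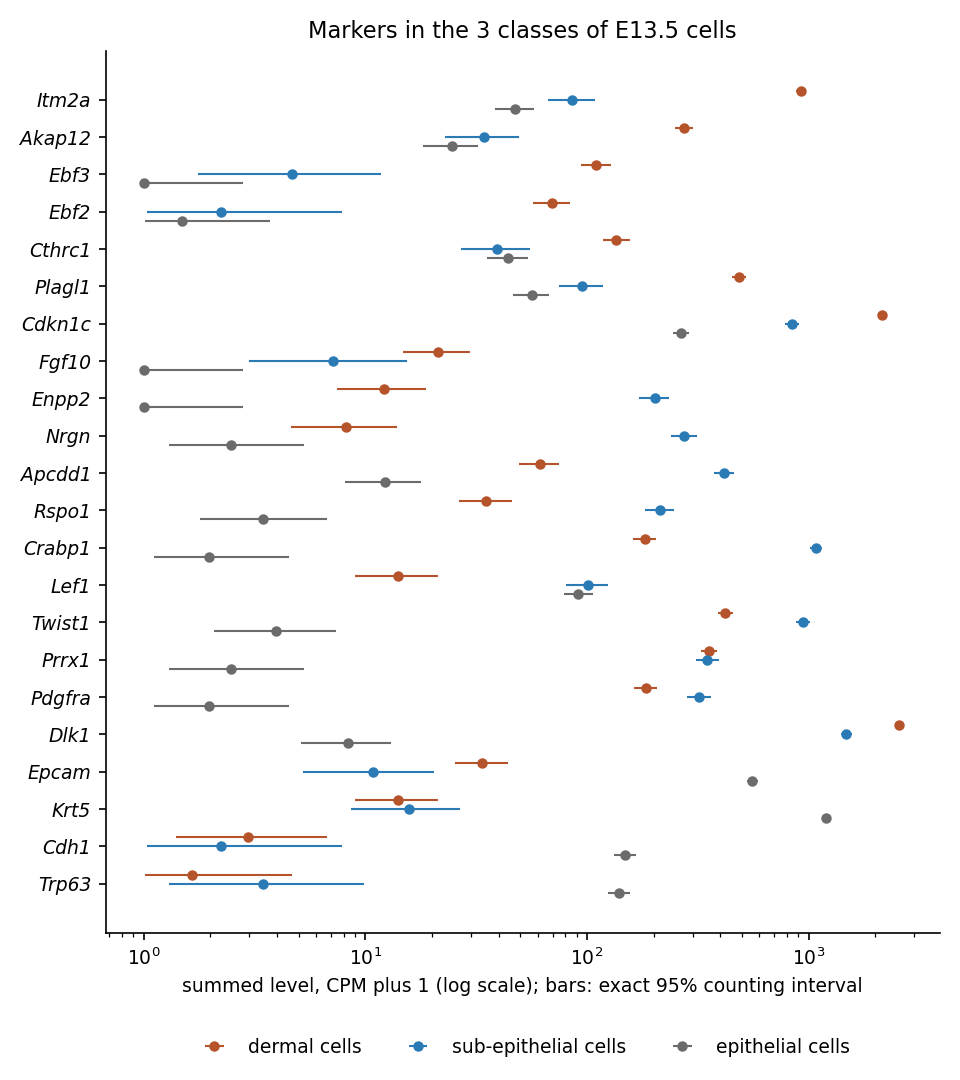
Summed levels of 22 marker genes in the 3 classes of E13.5 cells, in CPM plus 1 on a log scale, with exact 95% counting intervals as bars. Rule genes separate by construction; Plagl1, Cdkn1c and Cthrc1 outside the rule are highest in the 82 dermal cells, Crabp1, Lef1 and Twist1 are higher in sub-epithelial than in dermal cells, and Epcam, Krt5, Cdh1 and Trp63 are epithelial.

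Markers of other cell types were then read in the 82 cells. Of 10 epithelial markers, 9 had a UMI, led by Epcam, and the list summed to 85.8 CPM against 4683 in epithelial cells. An Epcam UMI was found in 18 dermal cells (9.76% when thinned), 35 dermal cells had 0 UMIs of the 6 epithelial rule genes, 13 had 3 or more and the highest count was 14. Blood and immune markers had 1 UMI of Cd52 with 5 of 6 genes at 0, and all 7 erythroid genes were at 0. Endothelial markers summed to 20.3 CPM with Pecam1 ahead, and Schwann cell markers to 4.59 CPM with Sox10, Fabp7 and Foxd3 at 0. Mural markers summed to 267 CPM, led by Acta2 at 95.7 CPM, while the defining pericyte gene Rgs5 was at 2.62 CPM. Neuron markers summed to 42.6 CPM with Tubb3 at 0, and melanoblast markers to 9.17 CPM. Skeletal muscle markers summed to 76.7 CPM, with 71 of their 117 UMIs in 1 cell. The fat precursor list summed to 2747 CPM, almost all Dlk1, with the mature fat cell genes Fabp4 and Plin1 at 0. Tendon markers, mainly Scx, summed to 33.4 CPM, mesothelium markers, mainly Wt1, to 43.2 CPM with Upk3b at 0, and cartilage and bone markers, mainly Sox9, to 101 CPM with Acan at 0. Defining genes of blood, vessel, nerve sheath and mature fat cells were thus at or near 0, collagens were present by the rule, and the part of epithelial RNA in single values was not tested.

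The difference from epithelium was broad. Of 7063 genes with 20 CPM or more in 1 of the 2 classes, 1108 (15.7%) were at least 2-fold higher in dermal cells with 5 CPM added to both sides, and 645 (9.13%) were at least 2-fold lower; the median log2 ratio of all these genes was 0.09. Members of a list could pass the minimum of 20 CPM through 1 class alone, so counts over measured members are a description. The genes that led were Dlk1, an imprinted membrane protein of preadipocytes, at 2554 against 7.35 CPM, and the mesenchymal transcription factors Prrx1 (354 against 1.47 CPM) and Twist1 (419 against 2.94 CPM). Fibin, Lum, Ogn, Mfap4, Col6a1, Col6a2, Lgals1, Zfhx4 and Lsp1 completed the highest 12. Fibin and Col6a2 had 0 UMIs in epithelial cells and were at least 165-fold and 150-fold higher in dermal cells, counted against a floor of 3 UMIs over the class. At the other end stood Cyp1a1, a xenobiotic-metabolising oxidase, with 1120 UMIs in epithelial and 0 in dermal cells, and the epithelial genes Krt17, Cldn4, Perp, Sfn, Dsp, Ovol1, Anxa1, Wnt6 and Cldn7, together with Gm16136. Krt17 was 255-fold (99.5 to 939) and Cldn4 130-fold (66.0 to 303) higher in epithelial cells.

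Matrix genes were read with the limit that the cells were chosen for collagen UMIs, which such genes can follow. Their counts stand beside 15.7% of all genes higher and 9.13% lower in dermal than in epithelial cells. Of 25 measured matrix glycoprotein and elastic fibre genes, 21 were 2-fold higher and 0 lower in dermal than in epithelial cells, with a median log2 ratio of 2.89. Fibronectin (Fn1) was at 467 against 17.6 CPM and Sparc, a collagen-binding glycoprotein, at 1134 against 323. Among 22 genes of collagen processing, 21 were higher and 0 lower. They included the collagen chaperone Serpinh1, at 958 CPM and 6.48-fold (5.72 to 7.36) its epithelial level, the procollagen cleavage enhancer Pcolce and the cross-linking enzyme Lox, which had 0 UMIs in epithelial cells. Proteoglycans were higher for 9 of 10, with Hspg2, the basement membrane perlecan, as the exception. Decorin (Dcn) was at 598 against 43.1 CPM and glypican 3 (Gpc3), a cell surface regulator of growth factors, at 1408 against 232. Of 14 other collagens, 10 were higher and 2 lower, the latter being Col17a1 of the hemidesmosome and Col18a1 of the basement membrane.

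Transcription factors and junction genes divided the classes in opposite directions. The counts stand beside 15.7% of all genes higher and 9.13% lower in dermal than in epithelial cells. Of 36 measured mesenchymal factors, 24 were higher in dermal cells and 4 lower (Sox9, Sox6, Snai2 and Irx3). Ebf1, another EBF family gene, was at 130 CPM (113 to 150) in 50 dermal cells against 1 epithelial UMI. The epithelial factors passed the minimum of 20 CPM through the epithelial class, apart from Klf5 at 34.1 CPM in dermal cells, so their count is no support. Trp63, the master regulator of stratified epithelium, had 1 UMI in dermal against 284 in epithelial cells, and Gata3 was at 2.62 against 132 CPM. Of 21 adhesion genes, 7 were higher and 11 lower. N-cadherin (Cdh2) was at 104 CPM in 54 dermal cells with 0 epithelial UMIs, and E-cadherin (Cdh1) at 1.97 against 147 CPM. Vimentin (Vim) was 4.59-fold higher (4.10 to 5.16) in dermal cells.

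Fewer genes separated dermal from sub-epithelial cells. Of 6868 genes, 247 (3.60%) were at least 2-fold higher and 273 (3.97%) at least 2-fold lower in dermal cells, with a median log2 ratio of 0.00. These counts depend on the depth and the offset, as thinning gave 603 and 581 and 20 added CPM gave 116 and 139. Of 6440 genes measured in both comparisons, 160 were higher in dermal cells than in either other class and 44 were lower than in either.

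The 12 genes highest against sub-epithelial cells held secreted and membrane proteins and a few factors. Ptn, the growth factor pleiotrophin, ranged over a median of 2244 to 9616 CPM per dermal cell and summed to 2523 CPM against 417, a ratio of 6.04 (5.41 to 6.77). Postn, a matrix protein that binds integrins, was at 387 against 55.4 CPM and Igf1 at 307 against 46.8. The Igf1 difference depended on the rule, since with Itm2a left out of it the log2 ratio, with 5 CPM added, went from 2.59 to 0.88. The ephrin receptor Epha3 was at 239 against 38.2 CPM, the kinase Nrk at 141 against 17.2, and the TGF-beta-induced matrix protein Tgfbi at 81.3 against 7.39. Pcdh7, Abi3bp and Arhgap20 were also among them. Abi3bp depended on the same choice, as its log2 ratio went from 2.61 to 0.75 with Itm2a left out of the rule. Aldh1a2, which makes retinoic acid, and the chemokine Cxcl13 had 0 sub-epithelial UMIs, but Cxcl13 rested on few cells, with 101 of its 127 UMIs in 1 cell.

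Among the 12 genes lowest against sub-epithelial cells, 5 encode transcription factors (Casz1, Sp5, Bcl11b, Irx1 and Irx2). Casz1 was at 1.97 CPM in dermal and 192 in sub-epithelial cells, and Sp5, a direct Wnt target, at 1.31 against 133. Bcl11b, at 33.4 against 293 CPM, and Irx1, at 66.8 against 453, were lower but present, in 25 and 22 dermal cells. The others were Apela, C1ql3, Ass1, Calb1, the BMP antagonist gene Grem1, Lin7a and the integrin gene Itga6. Twist2 differed by 6.35-fold (5.32 to 7.61) at 106 against 674 CPM and Twist1 by 2.25-fold (2.03 to 2.51), whereas Prrx1 did not separate the classes, with a ratio of 1.02 (0.878 to 1.18). Of 36 mesenchymal factors, 6 were higher in dermal cells (Ebf1, Meox2, Zfhx3, Plagl1, Sox9 and Klf4) and 6 lower (Twist1, Twist2, Foxp2, Zeb2, Tcf4 and Irx3). Of 13 Hox genes, 0 were higher and 6 lower, beside 3.60% and 3.97% of all genes.

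Matrix differences within the mesenchyme were smaller. The counts of this paragraph stand beside 3.60% of all genes higher and 3.97% lower in dermal than in sub-epithelial cells. Of 25 matrix glycoproteins, 6 were higher in dermal cells (Fn1, Tnc, Postn, Thbs2, Nid2 and Tgfbi) and elastin (Eln) was lower. Dcn, Ogn, Aspn and Gpc3 were the 4 of 10 proteoglycans that were higher, with Gpc3 at 3.91-fold (3.46 to 4.44), and the syndecan Sdc2 was lower. Loxl1, P3h1, Timp3, Adamts1 and Adamts5 were the 5 of 22 processing genes that were higher, with 0 lower. Hsp70 (Hspa1a), which responds to heat and dissociation, was at 649 CPM in dermal against 2262 in sub-epithelial cells, and 36 dermal cells had a UMI. Of the 18 immediate early and heat shock genes, Fosb was higher and Hspa1a and Hspa1b were lower in dermal cells, and the part of this response in other genes was not tested.

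Wnt genes differed in both directions within the mesenchyme. Of 30 measured Wnt genes, 11 were lower in dermal than in sub-epithelial cells and 6 higher, beside 3.97% and 3.60% of all genes. The classes were themselves divided on Rspo1 and Apcdd1, which act in Wnt signalling, so these genes are not independent of the choice. The lower group held the targets and feedback genes Lef1 (13.1 against 99.7 CPM), Axin2 (48.5 against 224 CPM, a 4.62-fold difference with the interval 3.51 to 6.14), Nkd1 (53.7 against 260 CPM), Nkd2, Notum, Tcf7, Wif1, Dkk1 and Sostdc1, with Wnt4 and Fzd10. The higher group held the secreted Wnt binders Sfrp1 (198 against 57.9 CPM) and Sfrp2 (324 against 59.1 CPM, 5.49-fold with the interval 4.08 to 7.54), Dkk2, Wnt2, Ror1 and Tcf7l2. Against epithelium, 10 of 33 were higher and 11 lower, beside 15.7% and 9.13% of all genes. The epithelial ligands Wnt3, Wnt4, Wnt6, Wnt7b, Wnt10a and Wnt10b were lower in dermal cells, and the mesenchymal ligands Wnt2, Wnt5a and Wnt11 were higher. Of 10 upper dermis genes, 7 were lower in dermal than in sub-epithelial cells, Crabp1 among them at 181 against 1080 CPM, and Trps1 was higher.

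IGF and FGF genes were followed for ligands, receptors and binding proteins, beside 3.60% of all genes higher and 3.97% lower in dermal than in sub-epithelial cells. Of 17 IGF pathway genes, 4 were higher in dermal than in sub-epithelial cells (Igf1, H19, Igf2r and Irs1) and the protease Htra1 was lower. Igf2 was at 1257 against 696 CPM, a 1.81-fold difference (1.64 to 1.99), and the binding protein gene Igfbp4 at 619 against 449. Fgf10 and Fgf18 were higher and the epithelial receptor gene Fgfr2 and the feedback phosphatase Dusp6 were lower, of 11 FGF genes. Fgf7 had 69 UMIs in dermal and 0 in epithelial cells. Fgfr2 was at 12.5 CPM in dermal and 184 in epithelial cells, and Fgfr1 at 138 against 10.8, so the ligand genes Fgf7 and Fgf10 lay in mesenchyme and Fgfr2, which encodes their receptor, chiefly in epithelium.

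Hormone and paracrine genes were lower in dermal than in sub-epithelial cells for 3 of 9, beside 3.97% of all genes, and the counts of Hedgehog and BMP genes stand beside the same share and 3.60% higher. Among these, Pth1r, the receptor of PTHrP, was at 53.1 against 211 CPM, and Esr1 at 5.90 against 24.6. Pdgfra, the receptor common to dermal fibroblasts, was in 74 of 82 cells (90.2%, thinned 52.4%) at 183 CPM, against 97.9% (thinned 78.7%) and 320 CPM in sub-epithelial cells. Of 8 Hedgehog genes, 0 were 2-fold apart between the mesenchymal classes, and Shh and Ihh were at 0 in dermal cells. Of 15 BMP genes, 0 were higher and Bmp4, Smad1, Id1 and Grem1 were lower. The guidance receptor Nrp1 was at 60.3 against 291 CPM, and its ligand Sema3a was 4.89-fold higher (2.62 to 10.1) in dermal cells, at 66.2 CPM. Cxcl12, a chemokine of stromal cells, was at 176 CPM against 80.0 in sub-epithelial and 2.94 in epithelial cells.

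Of 19 measured imprinted genes, 17 were higher in dermal than in epithelial cells and 0 lower, beside 15.7% and 9.13% of all genes, with a median log2 ratio of 1.77. Meg3 was at 3502 against 298 CPM and Mest at 974 against 135. Against sub-epithelial cells, 6 were higher (H19, Plagl1, Cdkn1c, Peg10, Igf2r and Dcn) and Zim1 was lower, beside 3.60% and 3.97% of all genes, with a median log2 ratio of 0.73 against 0.00 for all genes. The list was chosen with results of these cells known and is not independent evidence of its direction.

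The remaining lists were read by the same counts, to be set beside the 15.7% higher and 9.13% lower of all genes against epithelium and the 3.60% higher and 3.97% lower against sub-epithelial cells. Of 17 TGF-beta genes, 8 were higher and Fst lower against epithelium, and against sub-epithelial cells Ltbp4 and Tgfbi were higher and Inhba lower of 15. Retinoid genes were higher than in epithelium for 7 of 10, and against sub-epithelial cells Aldh1a2 and Rarb were higher and Crabp1 and Rarg lower of 9. Of 25 guidance genes, 13 were higher and 4 lower than in epithelium, and of 23 measured within the mesenchyme 3 were higher (Sema3a, Nrp2 and Epha3) and 3 lower (Sema5a, Nrp1 and Plxna4). Of 4 chemokine genes, Cxcl12 and Cxcl13 were higher in dermal cells in both comparisons, and Cxcl14 was lower than in epithelium. Of 6 Notch genes, 2 were higher and 2 lower than in epithelium, and 0 differed by 2-fold within the mesenchyme. Fibrillar collagens outside the rule were higher than in epithelium for 3 of 3, and Col5a2 also against sub-epithelial cells. Lower dermis genes were higher than in epithelium for 4 of 4, and against sub-epithelial cells Nr2f2 was higher and Thy1 lower of 5. S phase genes were not 2-fold apart within the mesenchyme for any of 23, and against epithelium Mcm6 and Gins2 of 22 were higher. The 13 glycolysis and hypoxia genes differed by 2-fold only for Slc2a1, lower than in epithelium. Of 13 genes of G1 and of cell cycle inhibition, Cdkn1c and Btg2 were higher than in sub-epithelial cells and 0 lower. Of the 13 proliferation genes that the study listed, 1 (Top2a) was lower than in sub-epithelial cells and 0 differed by 2-fold from epithelium. The log2 ratio of Top2a, -1.07, became -0.69 after thinning and -0.89 with equal weight for every cell. Without cycling cells it was 0.17, but Top2a itself helps to define the cells left out.

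Cell cycle RNA was the first source of variation read within the 82 cells. With 2 or more UMIs of Top2a and Mki67 taken as cycling, 27 cells (32.9%, 22.9 to 44.2; thinned 20.7%) qualified, against 36.2% (thinned 31.9%) of sub-epithelial and 48.0% (thinned 32.7%) of epithelial cells. The intervals of these shares overlap. Top2a, the topoisomerase of dividing cells, had 0 UMIs in 49 dermal cells and 54 in the highest. The 27 cycling cells were deeper, with a median of 22721 UMIs against 16438. Beside the mitotic genes, which the division itself sets apart (Ube2c at 433 against 5.20 CPM), cycling cells had less Itm2a (622 against 1100 CPM), Plagl1 (339 against 571), Ogn (119 against 226), Epha4 (133 against 257) and Shox2 (88.7 against 180). The epithelial markers were at 138 against 55.1 CPM in the cycling cells, a ratio of 2.51 (1.75 to 3.63), the neuron markers at 58.5 against 33.3, skeletal muscle markers at 31.9 against 103 (ratio 0.310, 0.177 to 0.516) and tendon markers lower by a ratio of 0.366 (0.156 to 0.762, 9 against 42 UMIs), and the part of these markers in these differences was not tested. Of the 117 skeletal muscle UMIs, 71 lay in 1 cell that was not cycling, so this ratio rests on that cell. The neuron list reached 3 or more UMIs in only 7 dermal cells. Cdkn1c was not lower in the cycling cells, at 2233 against 2086 CPM with a ratio of 1.07 (0.997 to 1.15). Dlk1, Col1a1, Ebf1, Ebf2 and Ebf3 all had ratios between 0.817 and 0.989.

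**Figure D3:**
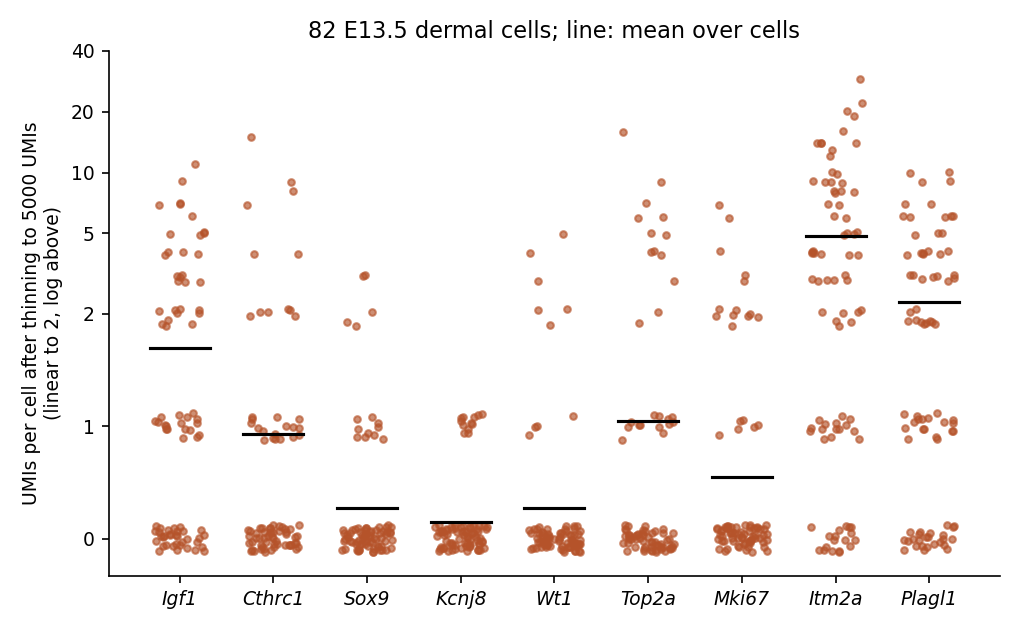
UMIs of 9 genes in each of the 82 dermal cells after thinning to 5000 UMIs (vertical axis, linear to 2 and log above; points are shifted slightly so that they do not overlap), with the mean as a line. Kcnj8, Sox9 and Wt1 are at 0 in most cells, Top2a and Mki67 are high in few cells, and Itm2a and Plagl1 spread over most cells.

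Cthrc1 was found in 48 dermal cells (58.5%; thinned 35.4%), against 40.8% (thinned 15.3%) of epithelial and 23.4% (thinned 12.8%) of sub-epithelial cells. Its spread was wide, with 42.2% of its UMIs in 5 cells and 23 UMIs in the highest. Cells were divided by a Cthrc1 UMI after thinning, 29 with and 53 without, whose median depths were 15142 and 18097 UMIs. The 29 cells had less of the G2 and mitosis list, with Top2a at 54.8 against 319 CPM and Mki67 at 16.9 against 135. They had more Itm2a, at 1375 against 720 CPM (ratio 1.91, 1.72 to 2.12), Akap12 (386 against 222) and Osr2 (173 against 51.3), a factor of limb and palate mesenchyme, which was in 44.8% of cells with Cthrc1 and 35.8% of those without. Sox9 was at 94.9 against 39.0 CPM and Hoxc10 at 207 against 90.3. Ebf1 did not separate them, with a ratio of 0.958 (0.695 to 1.31). Of the 29 cells, 6 were among the 27 cycling cells. Mural markers were at 156 against 317 CPM in them (ratio 0.493, 0.378 to 0.636), mesothelium markers at 12.7 against 57.0 (0.222, 0.0783 to 0.512), skeletal muscle markers at 33.7 against 96.0 (0.351, 0.194 to 0.599) and cartilage and bone markers at 131 against 87.5 (1.49, 1.07 to 2.09). The skeletal muscle ratio rests on 1 cell without a thinned Cthrc1 UMI, which held 71 of the 117 UMIs. Sox9 belongs to the cartilage and bone list and held most of its level in the cells with Cthrc1. The rest of that list was not higher in them. The part of these markers in the Cthrc1 division was not tested.

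Kcnj8, which encodes a potassium channel subunit known from mural cells (chr6:142564837-142571614), was found in 19 dermal cells (23.2%, 14.6 to 33.8; thinned 14.6%), in 0 of 47 sub-epithelial and in 0 of 98 epithelial cells. With a floor of 3 counts, these zeros allow a share of cells with a UMI of up to 6.38% and 3.06%, and the exact upper limits were 7.55% and 3.69%. Its summed level was 24.9 CPM, at least 6.74-fold that of sub-epithelial and 16.9-fold that of epithelial cells against the floor of 3 UMIs. The 12 cells with a Kcnj8 UMI after thinning had more Col14a1 (339 against 86.1 CPM), Thbs1 (407 against 108), Arhgap20 (186 against 51.2), Epha3 (470 against 196), Dcn (1054 against 515) and Prrx1 (627 against 304). Col14a1, a collagen that binds fibrils, was in 83.3% of these cells against 34.3% of the others, and Epha3 in 100% against 64.3%, so neither rested on a single cell. Hoxa10, Aspn and Meox2 were nearly absent from them, with 1, 0 and 0 UMIs against 91, 71 and 41 in the other 70 cells. The mural markers without Kcnj8 were at 360 against 220 CPM (ratio 1.63, 1.27 to 2.09), but single genes divided. Abcc9, the partner subunit of the channel, was at 33.9 against 9.30 CPM (ratio 3.64, 1.29 to 9.69) and Acta2 at 157 against 84.5. Pdgfrb was at 93.2 against 65.9 (ratio 1.41, 0.842 to 2.28), Notch3 at 16.9 against 21.7 and Rgs5 at 0 UMIs. The immediate early and heat shock list was at 12221 against 8131 CPM and the G2 and mitosis list was at 910 against 2897 CPM in the Kcnj8 cells. Neuron markers were at 93.2 against 33.3 CPM (ratio 2.79, 1.59 to 4.78), sub-epithelial markers at 402 against 732 (0.550, 0.440 to 0.679), skeletal muscle markers at 38.1 against 83.7 (0.455, 0.203 to 0.897) and cartilage and bone markers at 46.6 against 111 (0.420, 0.205 to 0.775). Of the 117 skeletal muscle UMIs, 71 lay in 1 cell without a thinned Kcnj8 UMI, so that ratio rests on this cell. The neuron list reached 3 or more UMIs in only 7 dermal cells, and the cartilage and bone list includes Sox9. The part of any of these lists in the other genes was not tested.

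Sox9, a factor of cartilage and of several epithelia (chr11:112782224-112787760), was found in 24 dermal cells (29.3%, 19.7 to 40.4; thinned 18.3%). Epithelial cells held it more often, at 81.6% (thinned 54.1%) and 176 CPM against 56.4 in dermal cells, and sub-epithelial cells less often, at 14.9% (thinned 4.26%) and 11.1 CPM. In the 15 cells with a Sox9 UMI after thinning, the epithelial markers were at 144 against 74.9 CPM, a ratio of 1.92 (1.26 to 2.85), the cartilage and bone markers without Sox9 at 119 against 30.4 CPM (ratio 3.91, 2.33 to 6.49) and the sub-epithelial markers at 1066 against 608 (1.76, 1.52 to 2.02). Vcan held 182 of the 260 UMIs of the sub-epithelial list in these cells and 310 of 779 in the others, while Apcdd1 was lower (24.6 against 67.1 CPM) and Crabp1 was at 156 against 186 CPM. Tendon markers were higher by a ratio of 3.12 (1.67 to 5.68, 19 against 32 UMIs), endothelial markers were at 41.0 against 16.4 CPM (2.50, 1.05 to 5.56), skeletal muscle markers at 36.9 against 84.2 (0.438, 0.195 to 0.863) and mesothelium markers had 1 UMI against 65. The skeletal muscle ratio rests on 1 cell without a thinned Sox9 UMI, which held 71 of the 117 UMIs. The part of these markers in the Sox9 division was not tested. These 15 cells had more of all 3 EBF genes, with Ebf3 at 234 against 85.8 CPM (ratio 2.73, 1.94 to 3.79), Ebf1 at 254 against 107 and Ebf2 at 131 against 56.9. They also had more Vcan (746 against 242 CPM), Fn1 (869 against 391), Ptn (4077 against 2227), Igf1 (476 against 275), the retinoic acid receptor Rarb (94.3 against 21.1) and the tendon factor Scx (73.8 against 19.5). Ebf3 was in 80.0% of them against 53.7% of the others and Rarb in 53.3% against 23.9%. Ebf1 was in 66.7% against 59.7% and Ebf2 in 40.0% against 34.3%, so their shares of cells lay closer than their levels. Igf1 was in fewer of the Sox9 cells, at 66.7% against 79.1%. Scx was in 26.7% against 20.9%, so that its difference lay in few cells. Aspn had 0 UMIs in them against 71 in the other 67 cells. Since Ebf2 and Ebf3 are rule genes, their levels within the class describe its members only.

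Igf1 (chr10:87858265-87937042) was the most widely detected of the 4 genes, in 63 dermal cells (76.8%, 66.2 to 85.4; thinned 58.5%) against 34.0% (thinned 14.9%) of sub-epithelial and 17.3% (thinned 6.12%) of epithelial cells. Per dermal cell its level was 0 at the lowest, 199 at the median and 1499 CPM at the highest. The 48 cells with a UMI after thinning had more of the IGF-binding protein gene Igfbp3 (257 against 83.0 CPM) and of Pappa (41.7 against 4.88), a protease of IGF-binding proteins. Aspn (75.7 against 3.25 CPM) and Meox2 (42.8 against 3.25) lay almost wholly in Igf1 cells, with 69 of 71 and 39 of 41 UMIs there. Irx3 (15.4 against 70.0 CPM), Irx5 (58.2 against 135) and Hoxc10 (80.1 against 195) were higher in the 34 cells without, where Irx3 was found in 64.7% of cells against 16.7%. Sub-epithelial markers were at 810 against 490 CPM in cells with and without Igf1 (ratio 1.65, 1.44 to 1.90), skeletal muscle markers at 46.1 against 122 (0.378, 0.253 to 0.558) and cartilage and bone markers at 84.5 against 125 (0.675, 0.485 to 0.937), and their part in the Igf1 division was not tested. Of the 117 skeletal muscle UMIs, 71 lay in 1 cell without a thinned Igf1 UMI, so that ratio rests on this cell. The cartilage and bone list includes Sox9. Top2a was at 324 against 109 CPM. The G2 and mitosis list was at 3019 against 1954 CPM in cells with and without Igf1, and was lower in the cells with Cthrc1 (860 against 3369), Kcnj8 (910 against 2897) and Sox9 (1837 against 2733). The S phase list went the same way for Igf1 (2000 against 1700 CPM), Cthrc1 (1413 against 2090) and Sox9 (1394 against 1972), but was higher in Kcnj8 cells (2130 against 1833).

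A further division was chosen after its values were seen. In 14 dermal cells Wt1 and Aldh1a2, both known from mesothelium and retinoid-producing mesenchyme, had 3 or more UMIs together, and 10 cells held both genes, against 0 UMIs of either in the 47 sub-epithelial cells. Upk3b, a defining mesothelial gene, was at 0. The 14 cells had more Hes1 (1179 against 308 CPM), Rspo3 (235 against 40.8), Tgfbi (217 against 51.2), and Hoxa10 (130 against 44.8). Cxcl13 had 105 of its 127 UMIs in them, most in the 1 cell named above, and the neuron gene Stmn2 had 19 of 31 (68.7 against 9.60 CPM). Stmn2 lay in only 6 dermal cells, with 14 UMIs in the highest, so its level rests on few cells. Members of the immediate early and heat shock list went both ways in the 14 cells. Atf3 was at 358 against 153 CPM, Fosb at 137 against 59.2 and Dusp1 at 145 against 62.4. Egr1 was at 152 against 239 CPM, Jun at 1487 against 1779, Hspa1a at 503 against 682 and Hspa1b at 431 against 650. The part of these genes was not tested. Mitotic genes were higher in the 14 cells, among them Ube2c (445 against 101 CPM), Cenpf (384 against 106), Ccnb1 (90.4 against 20.8) and Aurka (72.4 against 12.8), and Top2a was at 336 against 215. As in the cycling cells, Itm2a and Plagl1 were lower where mitotic genes were higher, and the part of the cell cycle in this was not tested. The 14 cells had less Itm2a (322 against 1056 CPM), Col1a1 (749 against 2168), Plagl1 (206 against 547) and Cyclin D1 (Ccnd1, 39.8 against 325), and Osr2 had 0 UMIs in them against 136 elsewhere. Ebf3 was not lower, at 137 against 103 CPM.

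**Figure D4:**
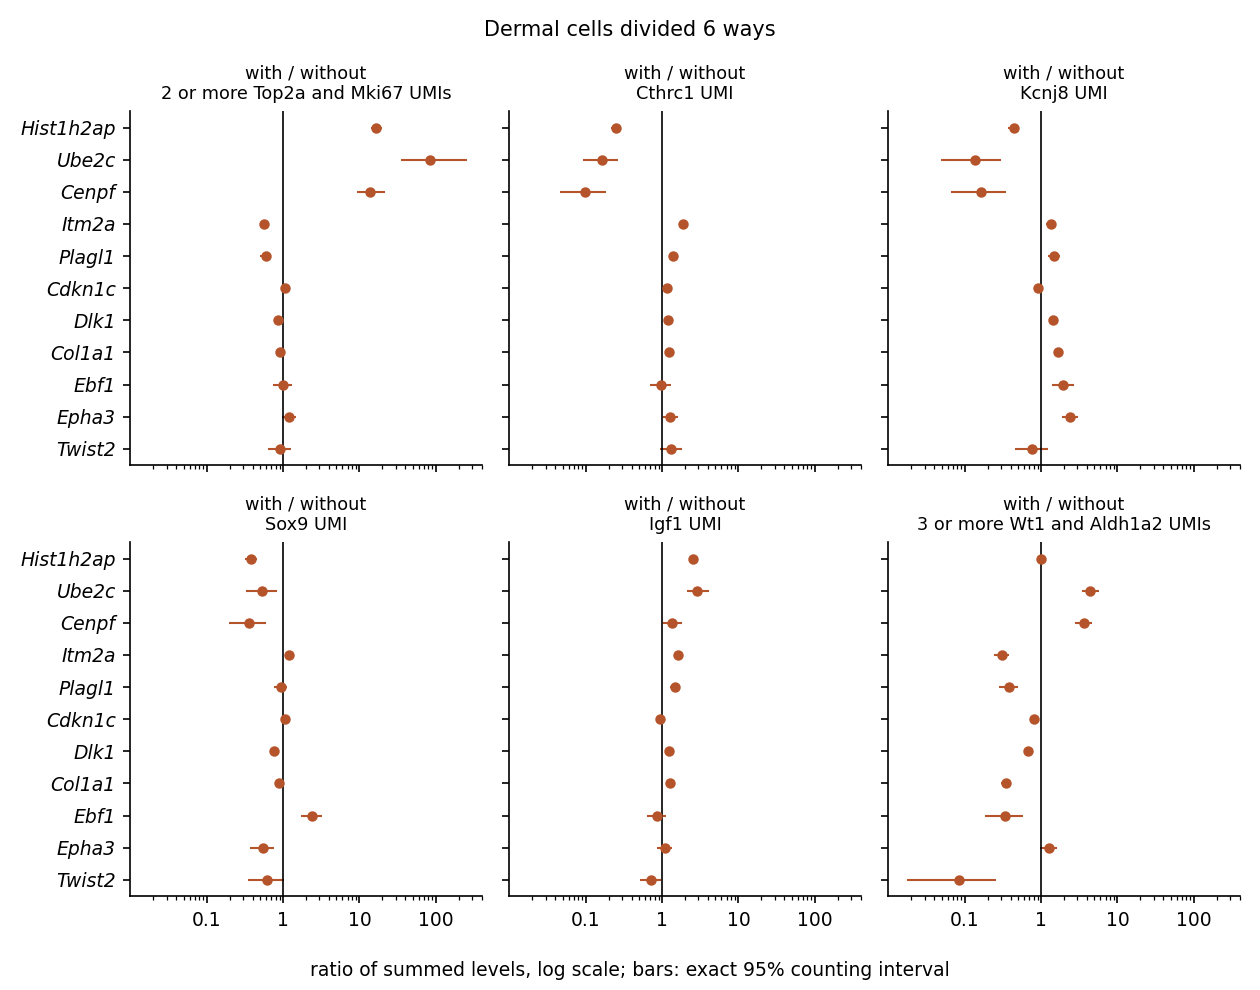
Ratio of the summed levels of 11 genes between dermal cells with and without a feature, for 6 divisions of the 82 cells (horizontal axis, log scale; bars are exact 95% counting intervals). The Cthrc1, Kcnj8, Sox9 and Igf1 divisions use a UMI after thinning; Itm2a and Plagl1 lie below 1 for cycling cells and for cells with Wt1 and Aldh1a2, and Ube2c lies below 1 for Cthrc1, Kcnj8 and Sox9 cells and above 1 for the other divisions.

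Overlaps between the divisions were set beside the number that the product of both shares gives, as a description. Sox9 and Kcnj8 cells shared 2 cells (13.3% of the first and 16.7% of the second, product 2.20). Igf1 cells held 8 of the 15 Sox9 (product 8.78), 7 of the 12 Kcnj8 (7.02) and 18 of the 29 Cthrc1 cells (17.0), near the Igf1 share of 58.5% of all cells. Cycling cells held 6 of the 29 Cthrc1 cells (9.55) and 2 of the 12 Kcnj8 cells (3.95), below the product, and 6 of the 15 Sox9 cells (4.94) and 17 of the 48 Igf1 cells (15.8), above it. Ranked by the variance of their Pearson residuals among 6284 genes with 20 CPM or more, the most variable genes were Malat1, Ptn, Jun, Gm42418, Col1a1, Hspa1a, Hmgb2, Hist1h2ap, Meg3, Itm2a, Dlk1, Klf6, Igfbp5, Hspa1b and Hsp90aa1. Their residual variance reached 24.6 for Malat1 and 19.6 for Ptn, with a median of 1.28 over all ranked genes, and the heat shock and immediate early genes among them respond to dissociation. Over the 82 thinned cells, the genes with the highest rank correlation were Pde10a (0.51), Dctd, Abi3bp, Epha3 and Mrps27 for Kcnj8 and Trib2 (0.48), Srp9, Cd24a, Cdc37l1 and Stau1 for Sox9. For Cthrc1 they were Nit2 (0.46), Gnas, Urm1, Gap43 and Sdf4, and for Igf1 Nek1 (0.39), Abl1, Mfge8, Slc22a17 and Pds5a. In counts this sparse, and with 5775 genes ranked over cells of 1 library, these describe the cells and are no finding.

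The same rule was then applied to the later libraries. At E14.5, 16 of 31 mesenchymal cells (51.6%, 33.1 to 69.8) were dermal, and at E15.5 55 of 279 (19.7%, 15.2 to 24.9). At P0 the rule put 261 of 265 mesenchymal cells in the dermal class, so it did not divide that library, which was not used further. Itm2a, a gene of the rule at each stage, was at 923, 1720 and 1385 CPM in the dermal class in stage order. In the same order Ebf3 was at 109, 61.7 and 4.32 CPM and Ebf2 at 68.8, 61.7 and 2.59 CPM, so that at the latest of these stages the class rested on Itm2a and Akap12. Plagl1 (485, 1017 and 848 CPM) and Cdkn1c (2140, 3215 and 2809 CPM) stayed high. The E15.5 counts were made with another version of the counting software and a list of 31053 genes in place of 32285, and its dermal cells held more Epcam than its sub-epithelial cells, at 86.4 against 10.1 CPM, which was not tested as a part of what follows.

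At E15.5, 349 of 6165 genes (5.66%) were at least 2-fold higher and 361 (5.86%) at least 2-fold lower in dermal than in sub-epithelial cells, with a median log2 ratio of -0.13. Of the 246 genes higher at E13.5 that could be matched, 180 (73.2%) had the same direction at E15.5, 84 (34.1%) by 2-fold or more, and 9 were 2-fold apart the other way. Of 272 lower genes, 198 (72.8%) had the same direction, 73 (26.8%) by 2-fold or more, with 8 the other way. These shares are read against those of all 6827 genes measured at E13.5 and matched, of which 37.1% were higher and 62.9% lower in dermal cells at E15.5. Both libraries were divided on the same 8 rule genes, so a shared direction is not independent of the choice. Nrk was 8.17-fold higher (4.77 to 15.2) at E13.5 and 55.7-fold (41.2 to 77.1) at E15.5, and Plagl1 5.18-fold and 12.9-fold. Fgf10 was 3.30-fold higher at E13.5 and 20.6-fold (9.27 to 51.6) at E15.5. Kcnj8 was found in 11 of 55 dermal and 2 of 224 sub-epithelial cells at E15.5, and Sox9 in 26 of 55 and 33 of 224. Cthrc1 was found in 22 of 55 (40.0%) and 60 of 224 (26.8%), and its level was not 2-fold apart at E15.5. Lef1, Axin2, Nkd1 and Crabp1 were also lower in the E15.5 dermal class.

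**Figure D5:**
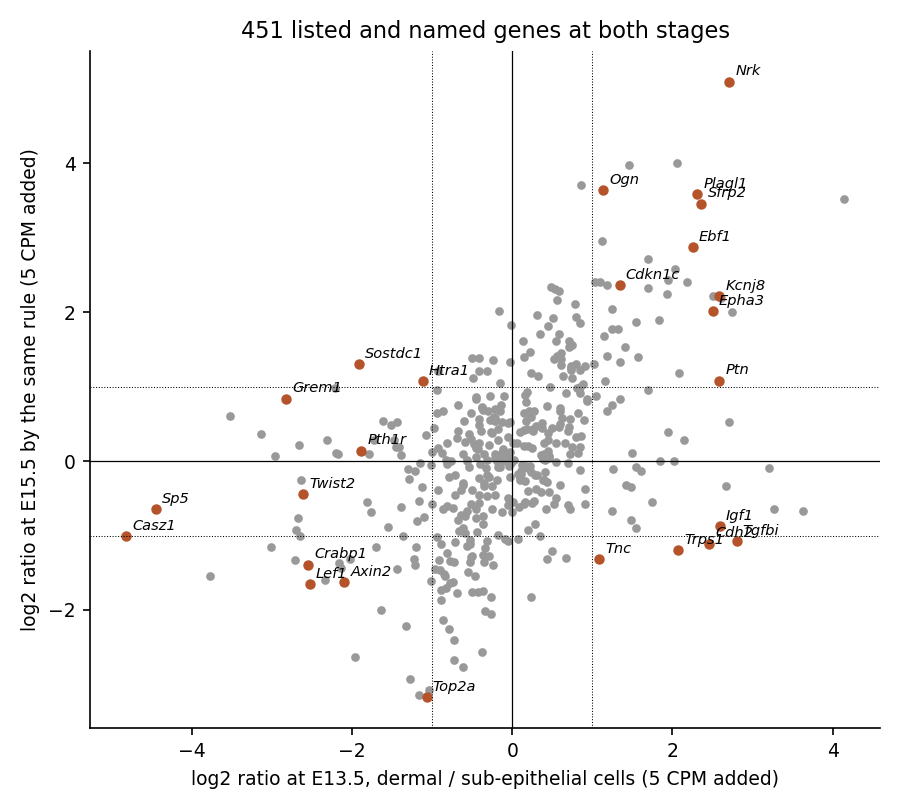
Log2 ratio of dermal to sub-epithelial cells, with 5 CPM added, at E13.5 (horizontal axis) and at E15.5 by the same rule (vertical axis) for 451 listed and named genes; dotted lines mark 2-fold. Nrk, Plagl1, Ebf1 and Cdkn1c lie above 0 at both stages and Lef1, Axin2 and Crabp1 below, while Igf1, Tgfbi, Cdh2, Trps1 and Tnc lie right of 0 at E13.5 and below it at E15.5.

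Igf1 differed in direction between the stages. In the dermal class its level was 307 CPM at E13.5 and 334 at E15.5, whereas in sub-epithelial cells it was 46.8 and 617 CPM. The ratio of dermal to sub-epithelial cells was therefore 6.55 (4.70 to 9.38) at E13.5 and 0.542 (0.487 to 0.602) at E15.5. For cell cycle genes the classes lay farther apart at the later stage. Of 28 G2 and mitosis genes, 6 were 2-fold lower in dermal than in sub-epithelial cells at E13.5, beside 3.97% of all genes. At E15.5 all 27 measured were, beside 5.86% of all genes, with Top2a at 42.3 against 422 CPM. Top2a and Mki67 were among the 6 at E13.5, and were less than 2-fold lower after thinning, at log2 ratios of -0.69 and -0.34. Cycling cells were 7 of 55 dermal (12.7%, 5.27 to 24.5) and 89 of 224 sub-epithelial cells (39.7%, 33.3 to 46.5) at E15.5. Shares at E15.5 were not thinned, and the median depth was 20162 UMIs in its dermal and 25492.5 in its sub-epithelial cells.

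Within the dermal class, the levels of single matrix genes differed between the libraries in both directions. Col1a1 was at 1911 CPM at E13.5 and 16482 at E15.5, an 8.63-fold difference, Dcn at 598 and 2507, and Lum, a keratan sulphate proteoglycan, at 305 and 1639, whereas Tgfbi was at 81.3 and 50.1. The transcription factor gene Zfhx3 was 19.3-fold and N-cadherin (Cdh2) 10.1-fold higher in the E13.5 than in the E15.5 dermal class, and Wt1 had 0 UMIs at E15.5. Igf2 was at 1257 and 112 CPM and its neighbour H19 at 2010 and 1425. Col1a1 is a gene of the rule, and every value of this comparison is between 2 libraries.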

How the data were processed

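Single-cell RNA of 4 libraries was measured with 10x 3' chemistry. The authors aligned reads to mm10 and deposited raw UMI counts per gene and barcode, made with Cell Ranger 3.1.0 for E15.5 and 6.0.0 for the other stages according to the file headers; the submitters' processing notes give 6.0.0. The deposited barcodes all held 500 or more UMIs. Cells were kept and classed as described in the report, with Python 3.11.15, numpy 2.4.6, scipy 1.17.1, pandas 2.3.3 and matplotlib 3.10.9. Genes were matched between libraries by Ensembl identifier. E13.5 and E15.5 shared 1 barcode, and 0 among kept cells. The labels' sorting protocol states that doublets were left out, and no doublet caller was run; cells with 3 or more epithelial UMIs were left out as an alternative.

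Summed UMIs had exact Poisson intervals, shares Clopper-Pearson intervals and ratios conditional binomial intervals. Genes were counted as higher or lower at a 2-fold CPM ratio with 5 CPM added, among genes with 20 CPM or more in a compared class, without rule genes and mitochondrial genes. A gene at 0 was given a floor of 3 UMIs over the class. The steps were tested on simulated data. Named genes were the rule and marker genes, the 12 highest and 12 lowest of each comparison among genes with 50 CPM or more in the higher class, the abundant or 2-fold members of 29 gene lists and 15 marker lists, the 15 most variable genes and the 5 most alike to each inner gene. Members, lists and rules were chosen with earlier results of these data known. Residual variances used a negative binomial model with a theta of 100. Promoter windows came from RefSeq, GRCm38.p6. A few of these genes are not reported here. Library and stage cannot be told apart.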

Additional observations from a re-analysis of the deposited data

Results flagged for a closer look

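Genes of the lists that were at least 2-fold apart between dermal and sub-epithelial cells at E13.5, and at least 2-fold apart in the other direction at E15.5, were singled out. The difference between the stages was not tested, since each stage had 1 library, and library, gene list and counting version differ with the stage. Values are log2 ratios of dermal to sub-epithelial cells with 5 CPM added. The matrix protein gene Tgfbi was at 2.80 at E13.5 and -1.07 at E15.5, with 81.3 against 7.39 CPM and then 50.1 against 110. Cdh2 was at 2.46 and -1.11, and its dermal level was 104 CPM and then 10.4. Trps1, a zinc finger factor of hair and cartilage, was at 2.07 and -1.20, with the dermal level at 41.9 and 35.4 CPM and the sub-epithelial level at 6.16 and 87.9. Tnc, a matrix protein of condensing mesenchyme, was at 1.08 and -1.32, with 34.1 and 89.8 CPM in dermal cells. In the other direction, the Wnt and BMP antagonist Sostdc1 was at -1.92 and 1.30, with 40.6 against 167 CPM and then 63.9 against 23.0, and the serine protease Htra1 at -1.12 and 1.07, with 13.8 against 35.7 CPM and then 182 against 83.9. Some genes higher in epithelium at E13.5, Sostdc1 among them, were also higher in dermal cells at E15.5. Sfn was at 2.20, Cldn4 at 1.63 and Dsp at 1.41, whereas Krt17 was at 0.79 and Cyp1a1 at 0.00. The part of epithelial RNA in the Sostdc1 value was not tested.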

How the results depend on the processing

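No paired analysis was possible because each stage had 1 library, and no replicate could be left out. The 82 dermal cells became 65 to 84 under the 12 other filters and rules tried. Of 177 values for 11 main results under 21 settings, 152 kept within 1.5 times of a count or within the counting interval of a share, and 25 did not. The 1108 genes higher than in epithelium became 673 with 20 CPM added and 539 with a minimum of 50 CPM, and the 645 lower genes 405 and 358. Against sub-epithelial cells, the 247 higher genes became 603 after thinning, 378 without cycling cells, 164 with Itm2a left out of the rule, 116 with 20 CPM added, 406 with a minimum of 10 CPM and 106 with a minimum of 50 CPM. The 273 lower genes became 581 after thinning, 139 with 20 CPM added and 139 with a minimum of 50 CPM. Shares of dermal cells were 20.7% after thinning and 47.6% at 1 or more UMIs for cycling, 18.3% and, at 2 or more UMIs, 18.3% for Sox9, 58.5% and 63.4% for Igf1, and 35.4% and 31.7% for Cthrc1; Kcnj8 was at 12.2% at 2 or more UMIs. The 73.0% of genes with the same direction at E15.5 became 68.5% with Akap12 left out of the rule, 59.3% after thinning and 66.4% without cycling cells. Of 1095 values for 73 gene ratios, 1041 stayed within the range that the counting intervals of both classes allow, 52 did not (16 of them after thinning and 14 with Itm2a left out of the rule), and 2 reversed: without cycling cells, the log2 ratio of dermal to sub-epithelial cells was 0.33 for Mki67 and 0.17 for Top2a (these 2 genes define the cells left out). With Itm2a left out of the rule, Igf1, Abi3bp, Cdkn1c and Fgf10 were no longer 2-fold higher than in sub-epithelial cells, at log2 ratios of 0.88, 0.75, 0.99 and 0.18 in place of 2.59, 2.61, 1.34 and 1.18. Fgf10 was also at 0.92 with Akap12 left out and 0.91 with 30 or more collagen UMIs. Top2a and Mki67 were less than 2-fold lower after thinning (-0.69 and -0.34) and with equal weight for every cell (-0.89 and -0.75). The cause was not tested for the other changes. Genes below 20 CPM in both classes were outside the counts.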

Other observations

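Some genes of the dermal class lay in very few cells, and were looked at after their values were seen. The chemokine gene Cxcl13 had 101 of 127 UMIs in 1 cell and 99.2% in 5 cells, and was again higher in dermal than in sub-epithelial cells at E15.5, at 63.9 against 1.01 CPM. The muscle regulators Myf5, Myod1, Pax7 and Myog had 14 UMIs in 3 cells, 12 of them in 1 cell, and cardiac actin (Actc1) had 23 of its 30 UMIs in 1 cell. The neuronal gene Stmn2 had 31 UMIs in 6 cells with 14 in the highest. These values stand without an explanation.

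Outside the lists, 11 more genes were 2-fold apart in opposite directions at E13.5 and E15.5, and this was not tested. The smooth muscle gene Tagln was at 148 CPM in dermal against 67.7 in sub-epithelial cells at E13.5 and at 55.3 against 231 at E15.5. The hyaluronan-binding protein gene Tnfaip6 was at 49.8 against 128 CPM and then at 402 against 141, and Fndc1 at 13.1 against 66.5 and then at 120 against 30.9.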
